A study of Oryza sativa Japonica Group with 20 samples.

Results

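At 594 places in the rice genome, H3K4me3 peaks were called in both wild-type (WT) root-tip libraries and in neither library of the plt345 mutant, and neither WT library had H3K27me3 there. These regions were found by merging the peaks of the 4 H3K4me3 libraries into 30126 regions and counting a mark as present in a library from 150 bp of peak cover upwards. Of the 17607 regions with H3K4me3 in both WT libraries and H3K27me3 in neither, the 594 made up 3.37%; 584 more had H3K4me3 in 1 plt345 library and 16429 kept it in both. The members were chosen by their H3K4me3 in all 4 libraries and their H3K27me3 in WT, so those values are a description and were not tested. "Absent" means here that no peak was called, since the files hold peak lists and not read counts.

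The data are CUT&Tag maps, in which an antibody directs a transposase to cut and tag chromatin where its target lies. Nuclei came from root tips of about 0.8 cm of 7-day seedlings. The mutant plt345 is a triple mutant of PLT3, PLT4 and PLT5, set against WT plants of cultivar ZH11. The sources used here do not describe the lesions of the 3 genes or whether tips of several plants were pooled. Both genotypes had 2 libraries each for H3K4me3, H3K27me3 and EMF2b, and WT had 2 for PLT5; the 6 other samples of the series, of IgG and of PLT5 in plt345, were not analysed here.

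As background, H3K4me3 is laid down around the starts of transcribed genes, and its breadth and strength tend to go with promoter activity. H3K27me3 is the repressive mark written by Polycomb repressive complex 2 (PRC2), of which EMF2b is a subunit related to the Su(z)12 protein of flies. PLT proteins are AP2-type transcription factors that maintain stem cells in root meristems and are best known from Arabidopsis. The title of the study names bivalent domains, which carry both marks; the regions described here are by their definition not bivalent in WT.

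Peak lists hold no reads, so the depth behind each library is unknown. The H3K4me3 lists held 27182 and 26841 peaks in plt345, against 25762 and 25165 in WT, and their median −log10 q was 17.4 and 17.9 in plt345, against 20.0 and 20.2 in WT. The mutant lists were thus longer but of lower median strength, and the part this played in the absence of single peaks was not tested. The genome assembly behind the positions is not named, so regions are given by the lists' own positions, with no sequence and no gene assigned.

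The absent regions were among the weakest and shortest H3K4me3 regions of WT. Their strength, the highest −log10 q of the authors' peaks in a region averaged over both WT libraries, had a median of 9.40 (5th to 95th percentile 6.51 to 16.5), against 23.4 (9.48 to 50.1) in kept H3K4me3-only regions. Taken per library, the median was 9.37 ± 0.307 in absent and 23.4 ± 0.293 in kept regions (SD, n = 2 libraries). Within the lists this put the median absent region at percentile 13.6 ± 1.05 and the median kept one at 58.9 ± 0.782. Fold enrichment over the background of the library, another value of the authors' peak caller, differed less, with medians of 2.85 ± 0.0156 and 4.06 ± 0.0107.

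The absent regions were also short. A median of 463.5 bp was covered in WT at absent regions and 945 bp at kept ones. Of the absent regions, 185 (31.1%) were under 400 bp, close to the shortest WT peaks of 290 and 295 bp, against 4.01% of kept regions, and 22 (3.70%) exceeded 1000 bp, against 45.3%. The 594 regions spanned 0.364 Mb in all. The 584 regions that kept H3K4me3 in 1 plt345 library resembled the absent ones, with a median strength of 10.4 and a median length of 461 bp.

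The share of regions that were absent dropped steeply with WT strength. When the H3K4me3-only regions were split by strength into 10 bins of equal size, 20.7% of the weakest bin were absent (366 of 1764; 95% Wilson interval 18.9 to 22.7%), and this bin held 61.6% of all absent regions. The share was 7.34% in the next bin, 3.24% in the third and 1.82% in the fourth, and it was at or under 0.341% in the fifth to seventh. No region of the 3 strongest bins was absent. Strength and absence both come from the H3K4me3 peaks that chose the members, so these shares are a description. The limit of 150 bp could not cut an H3K4me3 peak. Regions were merged from these peaks, and the shortest had 272 bp in plt345 and 290 bp in WT. Every absent region therefore had 0 bp of H3K4me3 in plt345 by construction. Where presence needed 500 bp, 685 regions were absent. Just inside the limit for H3K27me3, 13 members had 52 to 141 bp of it in WT, and just outside it the nearest excluded region had 151 bp. The number of absent regions rests on both WT replicates, being 1008 without WT replicate 1 and 1123 without WT replicate 2. In each case the WT H3K27me3 library of that number was left out too, so the limit for H3K27me3 then rested on 1 library. With the weakest 25% of the peaks of each list left out, 506 regions were absent, of a median strength of 15.5 and a median length of 743 bp.

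**Figure D1:**
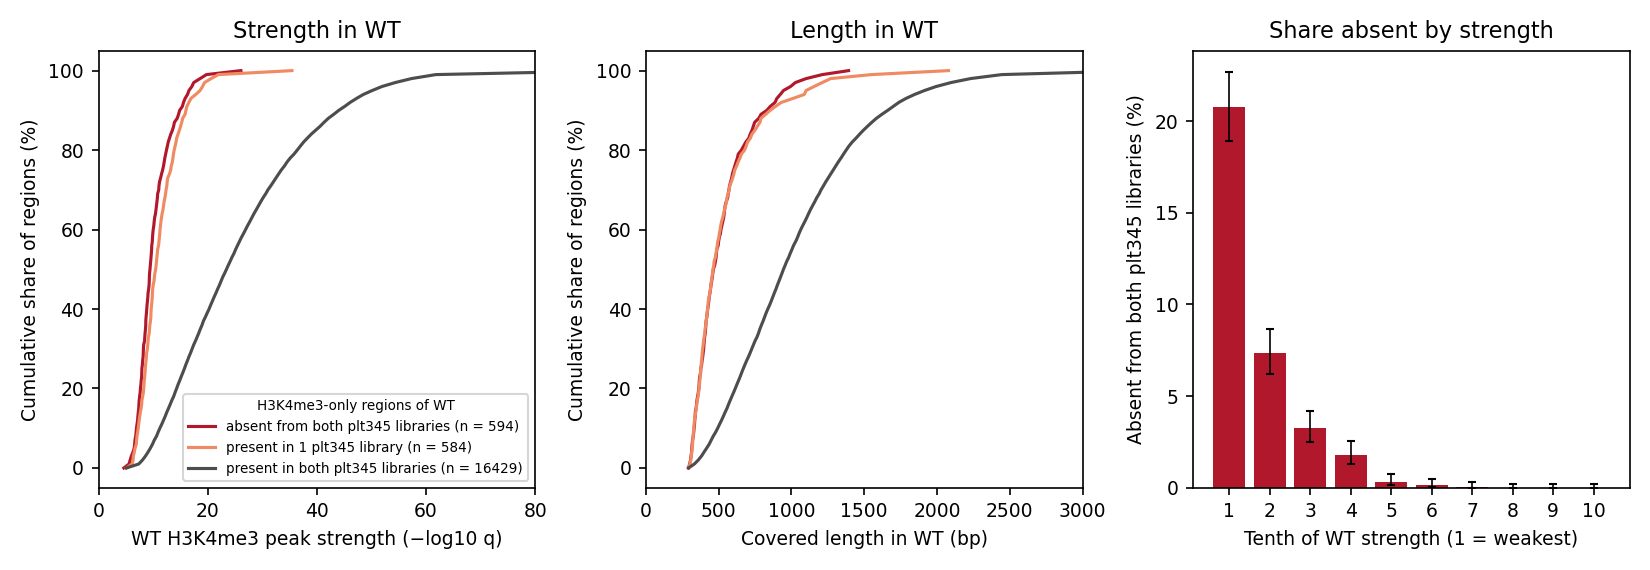
Cumulative shares of H3K4me3-only regions by WT peak strength (−log10 q, mean of both WT libraries) and by covered WT length (bp), with 1 line per class of presence in plt345, and the percentage absent from both plt345 libraries in each of 10 bins of WT strength (bars, with 95% Wilson intervals). Absent regions lie at the weak and short end, with medians of 9.40 and 463.5 bp against 23.4 and 945 bp in kept regions, and 20.7% of the weakest bin was absent.

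Single strong regions were absent too, and the strongest was an exception in several readouts. It lay on chromosome 2 from 9284420 to 9285710. H3K4me3 covered 0 and 0 bp of it in plt345 and 1291 and 1138 bp in WT, with a WT −log10 q of 24.2 and 27.9 and a fold of 5.56 and 6.10. Both WT libraries had EMF2b there, at 350 and 320 bp, and both PLT5 libraries had a peak, at 508 and 409 bp. In plt345 EMF2b covered 0 bp in both libraries, and H3K27me3 covered 615 bp in 1 library and 0 in the other. In WT, H3K4me3, EMF2b and PLT5 thus lay on this region together, and in plt345 neither H3K4me3 nor EMF2b was called. The nearest kept H3K4me3 region was 25230 bp away.

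The other strong members varied in length and in what lay on them. The second by strength, on chromosome 8 from 11468745 to 11469064, had 313 and 316 bp of H3K4me3 in WT at a mean −log10 q of 25.4, 287 bp from a kept region. The third, on chromosome 10 from 13806338 to 13807056, had 719 and 596 bp in WT at 23.7, 455 bp from a kept region and 48 bp from a WT H3K27me3 peak, and no EMF2b or PLT5 peak in any library. The fifth, on chromosome 7 from 26141005 to 26142011, had 931 and 1007 bp in WT at 21.7, with a kept region 216 bp away. EMF2b covered 0 bp of it in plt345 and 408 and 464 bp in WT, and PLT5 covered 439 bp in 1 library. Of the 6 strongest, 3 therefore lay within 500 bp of an H3K4me3 region of all 4 libraries. The others of the 6 were on chromosome 3 from 15981225 to 15981605 and from 25968790 to 25969144, with mean WT strengths of 23.5 and 19.9, and the region of chromosome 2. On the later of the chromosome 3 regions EMF2b covered 0 and 230 bp in plt345 and 279 and 266 bp in WT.

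The longest members were mostly weak. On chromosome 1 from 2274873 to 2276437 H3K4me3 covered 1263 and 1522 bp in WT at a mean −log10 q of 10.1, and on chromosome 1 from 30012847 to 30014447 it covered 1601 and 1180 bp at 15.5. The next, on chromosome 2 from 8143969 to 8145516, had 1465 and 1310 bp at 9.70 and carried EMF2b in all 4 libraries, over 264 and 483 bp for plt345 and over 291 and 171 bp for WT. On chromosome 4 from 28108533 to 28110384, 1152 and 1432 bp were covered at 9.69, beneath a PLT5 site. A region of chromosome 8 from 27658747 to 27660207 had 1282 and 1180 bp at 10.4 and EMF2b in all 4 libraries. The sixth by length was the strongest region of chromosome 2. None of the 6 had H3K27me3 in both plt345 libraries.

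Many absent regions were near neighbours of H3K4me3 that was called in all 4 libraries. Measured edge to edge, the nearest H3K4me3 region present in all 4 libraries was a median of 3271 bp away, and 171 absent regions (28.8%) lay within 1000 bp of one (95% Wilson interval 25.3 to 32.6%). Kept H3K4me3-only regions were a median of 5168 bp from another kept region, and 13.3% lay within 1000 bp (12.8 to 13.8%). The median distance of absent regions was 5459 bp where presence needed 500 bp and 6566 bp with the weakest 25% of peaks left out. Short kept regions were also close to others: among regions under 400 bp in WT, 33.5% of absent and 31.1% of kept ones lay within 1000 bp of a kept region. Among regions of 600 bp or more the shares were 22.1% and 10.1%. The 171 close members were of similar strength to the 423 others, with median −log10 q of 9.60 and 9.28, and slightly shorter, at 436 against 482.5 bp.

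The kept neighbours were shorter in plt345, as kept regions were in general. At the 175 kept regions within 1000 bp of an absent one, a mean of 795 and 790 bp was covered in plt345, against 855 and 823 bp in WT. Over all 21267 kept regions the means were 1018 and 1027 bp in plt345, against 1067 and 1061 bp in WT. These lengths come from the contrast that chose the members and were not tested. The shortest peak was also shorter in the plt345 H3K4me3 lists, at 272 and 277 bp, than in the WT lists, and the part of peak calling in the lengths was not tested. Regions newly called in the mutant were seldom nearby. Within 1000 bp of 12 absent regions (2.02%) lay a region with H3K4me3 in both plt345 and neither WT library and no H3K27me3 in WT. For kept regions this share was lower, at 0.937%. Some H3K4me3 peak of plt345, newly called or not, lay within 1000 bp of 215 absent regions (36.2%).

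**Figure D2:**
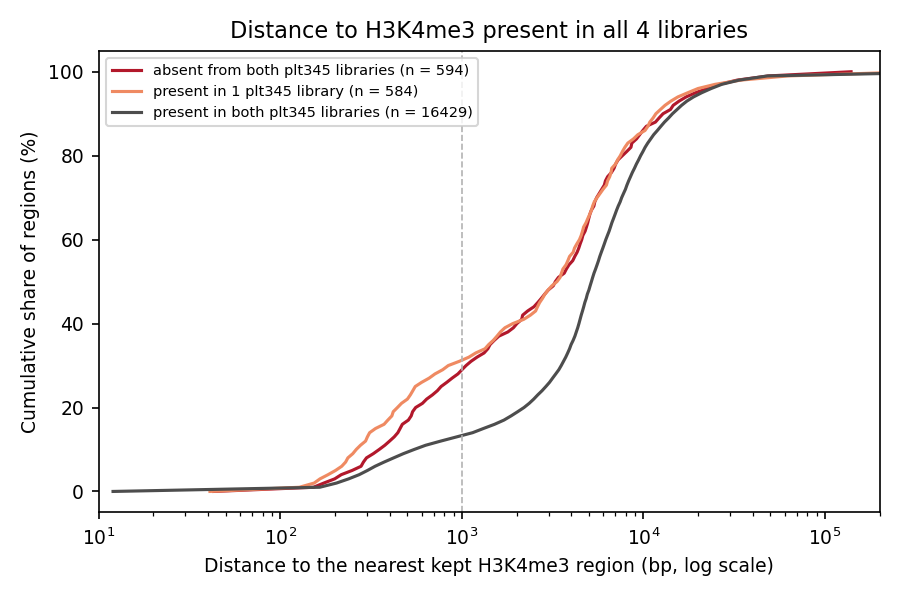
Cumulative share of H3K4me3-only regions by the edge-to-edge distance (bp, log scale) to the nearest H3K4me3 region present in all 4 libraries, with 1 line per class of presence in plt345 and a dashed line at 1000 bp. At that line 28.8% of the regions absent from plt345 are reached, against 13.3% of the kept ones, and the lines draw together towards the largest distances.

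PLT5, which the rule did not use, lay on 126 of the 594 absent regions, where a site found in both PLT5 libraries overlapped by at least 1 bp. This was 21.2% (95% Wilson interval 18.1 to 24.7%), against 13.9% of kept regions (13.4 to 14.4%) and 14.3% of all 17607 H3K4me3-only regions. The share was not particular to the absent regions. The 584 regions with H3K4me3 in 1 plt345 library had 19.9% (16.8 to 23.3%), and the 418 lost regions with H3K27me3 in both WT libraries had 45.9%. In single libraries PLT5 covered 150 bp or more at 25.9% and 24.4% of absent regions and 19.4% and 15.7% of kept ones. The difference has no test over samples beyond these 2 libraries of 1 genotype, and PLT5 in plt345 was not analysed here, so binding has no mutant control. PLT5 peaks were weaker at absent than at kept regions, at median percentiles of 47.1 and 38.4 of their lists, against 54.1 and 54.8. Members bound by PLT5 were less often close to a kept region than unbound ones, at 15.9% against 32.3%. PLT5 was more frequent at the members that stood alone: 25.1% of those over 1000 bp from a kept region were bound (21.2 to 29.4%) and 11.7% of those nearer (7.70 to 17.4%). Kept regions ran the other way, with 13.3% bound beyond 1000 bp of another kept region and 17.6% nearer (16.1 to 19.3%). The higher PLT5 share of absent regions was thus seen beyond 1000 bp only, and within 1000 bp their share was below that of kept regions. The difference between the distance classes was not tested. Absent and kept regions were not matched for length or strength. Within 1000 bp the median WT length was 436 bp in absent and 687.5 bp in kept regions, and the median −log10 q 9.60 and 18.3. Beyond 1000 bp the lengths were 482.5 and 986 bp and the strengths 9.28 and 24.4.

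EMF2b was found at about as many absent regions in plt345 as in WT. It covered 150 bp or more at 166 (27.9%) and 207 (34.8%) of the 594 regions in plt345 and at 189 (31.8%) and 182 (30.6%) in WT. The mutant values lay on both sides of the WT values, and the plt345 replicate with the higher share also had the longest EMF2b list, with 17891 peaks against 14851 to 15486 in the other 3 libraries. The means were 31.4 ± 4.88% in plt345 and 31.2 ± 0.833% in WT (SD, n = 2 each), a difference of 0.168 percentage points (exact two-sided permutation test, p = 1.00; 2 against 2 libraries allow no p under 0.333). No difference in EMF2b between the genotypes was detectable at these regions with 2 libraries each. The difference changed sign among the alternatives, ranging from -3.95 points with the weakest 25% of peaks left out to 4.35 points with equal covered length taken from every list. Regions with H3K4me3 in 1 plt345 library carried EMF2b nearly as often, at 25.5% and 27.7% in plt345 and 25.9% and 26.0% in WT. Lost regions with H3K27me3 in both WT libraries carried it more often, at 56.7% and 61.5% in plt345 and 57.9% and 56.2% in WT.

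At kept H3K4me3-only regions EMF2b was rarer, and both mutant values lay above both WT values: 21.4% and 24.7% in plt345 and 18.7% and 17.9% in WT. The mean difference was 4.71 percentage points (exact permutation p = 0.333, n = 2 each, the smallest possible). The excess of absent over kept regions was 6.52 and 10.2 percentage points in the plt345 libraries and 13.1 and 12.7 in the WT libraries. It was smaller in the mutant by 4.54 points, again with the groups apart and an exact two-sided permutation p of 0.333, which cannot pass 0.05. This difference kept its sign in every alternative tried but ranged widely. It was -8.68 points with the weakest 25% of peaks left out, -2.52 without replicate 1 of all WT antibodies and -1.58 among regions of a WT −log10 q of 8 to 12. Within each of the 4 libraries EMF2b was more frequent at absent than at kept regions (mean excess 10.6 points; exact sign permutation over libraries, two-sided p = 0.125, the smallest that 4 libraries allow). This did not hold within 1000 bp of a kept region. There EMF2b lay on 17.5% and 27.5% of absent regions in plt345 and 22.8% and 21.1% in WT. Kept regions had more in each library, with 25.7% and 29.2% in plt345 and 23.1% and 22.0% in WT. The kept regions there were also longer and stronger in WT, at medians of 687.5 bp and −log10 q 18.3. Absent ones had 436 bp and 9.60, and the part of length and strength in these shares was not tested. With the weakest 25% of peaks left out, the mean shares were 23.7% at absent and 23.1% at kept regions in plt345, and 27.7% and 18.3% in WT, so that little excess was left in the mutant. Where EMF2b was present, its peaks were weaker at absent than at kept regions in every library. Median percentiles of the lists were 49.5 and 49.7 at absent regions in plt345 and 51.7 and 53.1 in WT. At kept regions they were 58.0 and 59.2 in plt345 and 58.9 and 58.9 in WT. The shortest EMF2b peak had 247 and 249 bp in the plt345 lists, against 290 and 285 bp in the WT lists. The part of this difference in the shares was not tested.

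**Figure D3:**
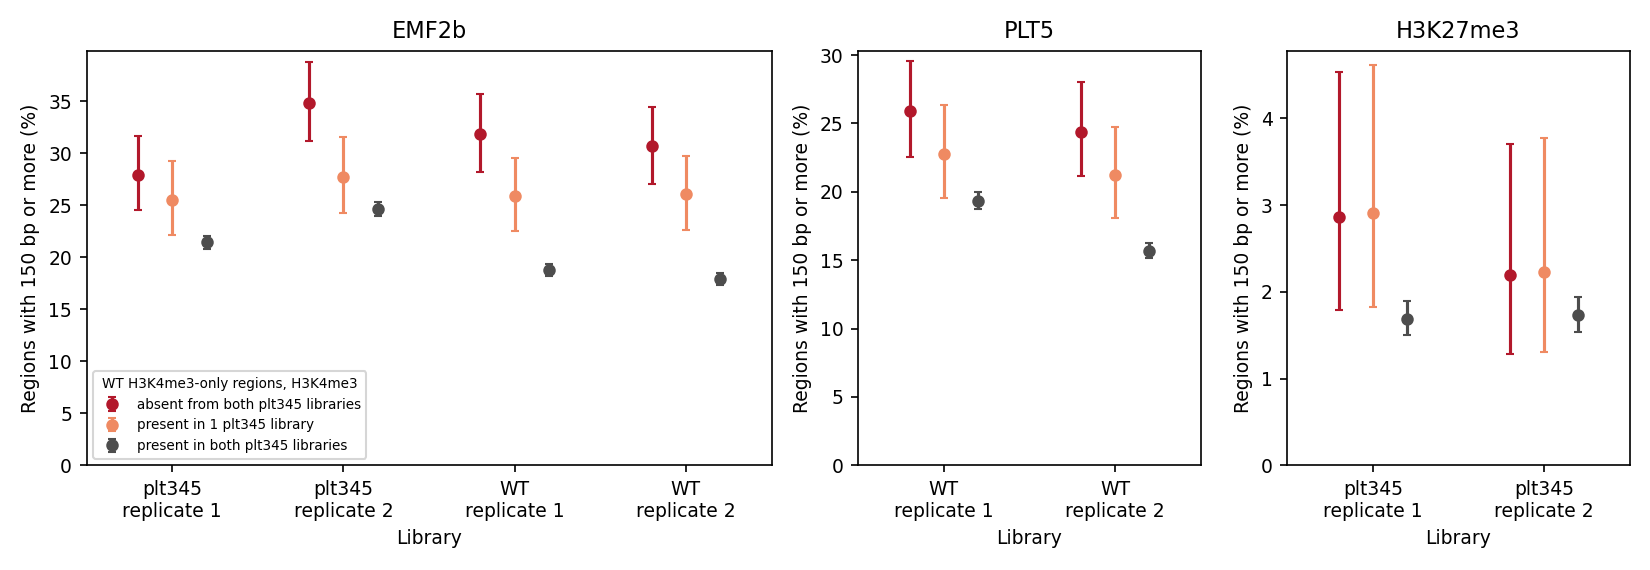
Share of H3K4me3-only regions with at least 150 bp of EMF2b, PLT5 or H3K27me3 (percent), by library, for the 3 classes of H3K4me3 presence in plt345; points are shares and bars 95% Wilson intervals, which cover counting error only. Absent regions carried EMF2b at 27.9 to 34.8% in every library, regions present in 1 plt345 library at 25.5 to 27.7% and kept regions at 17.9 to 24.7%. H3K27me3 was at or under 2.91% in all classes.

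Below a −log10 q of 16, the excess of EMF2b and PLT5 was seen among regions of like WT strength. Between −log10 q 8 and 12, which held 303 absent and 1711 kept regions, EMF2b lay on 31.7% and 37.0% of absent regions in plt345 and 33.3% and 33.3% in WT. Kept regions of the same strength had 13.3% and 15.5% in plt345 and 12.3% and 11.4% in WT. PLT5 sites lay on 23.4% of the absent (19.0 to 28.5%) and 10.6% of the kept regions (9.26 to 12.2%). Under 8 the PLT5 shares were 19.5% (14.0 to 26.4%) and 7.14% (4.81 to 10.5%). Between 12 and 16 they were 18.6% (12.1 to 27.4%) and 10.1% (8.95 to 11.4%). The intervals cover counting error over regions only, and the PLT5 shares of the bands were not tested. At 16 or more only 40 absent regions were left, of which 7 (17.5%; 8.75 to 32.0%) were bound, against 15.2% of kept ones. There EMF2b lay on 15.0% and 27.5% of absent regions in plt345 and 22.5% and 22.5% in WT, against 24.1% and 27.8% of kept regions in plt345 and 20.8% and 19.9% in WT, and no excess was detectable with so few regions. Length was not matched in these bands. At 16 or more the median WT length was 491 bp in absent and 1057.5 bp in kept regions. Between 8 and 12 it was 481 and 568 bp. The part of length in the shares was not tested. The strength bands were chosen after these values had been seen.

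**Figure D4:**
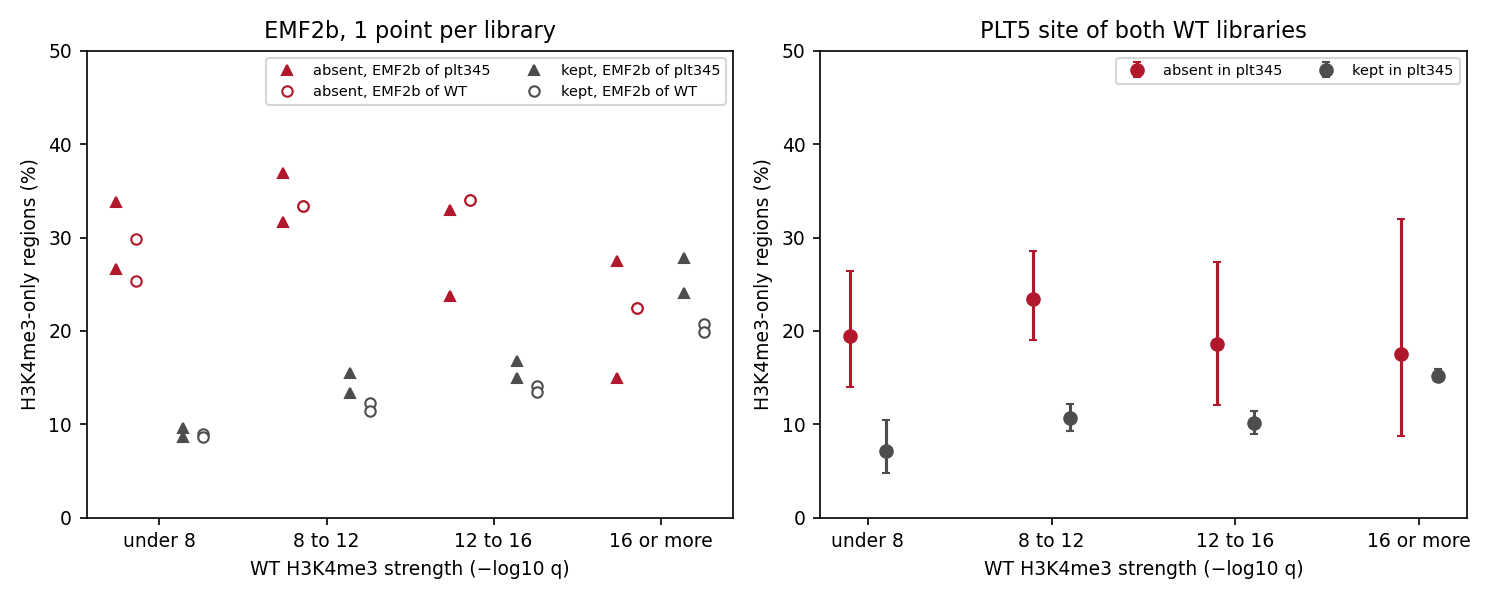
Share of absent and kept H3K4me3-only regions with EMF2b (left, percent, 1 symbol per library, filled triangles for plt345 and open circles for WT, which coincide where both WT libraries gave the same share) and with a PLT5 site (right, percent, with 95% Wilson intervals), in bands of WT H3K4me3 strength (−log10 q). Below 16 every absent value lies above the kept values of the same band, as between 8 and 12 with PLT5 at 23.4% and 10.6%, and at 16 or more the classes overlap.

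EMF2b and PLT5 tended to lie on the same absent regions. EMF2b covered 73.0% and 81.0% of the 126 PLT5-bound members in plt345 and 83.3% and 83.3% in WT, against 15.8% and 22.4% in plt345 and 17.9% and 16.5% in WT at the 468 unbound ones. Kept regions bound by PLT5 had similar shares, 75.5% and 81.4% in plt345 and 74.8% and 73.9% in WT. Among unbound regions EMF2b was more frequent at absent than at kept ones in every library, the kept values being 12.7% and 15.5% in plt345 and 9.69% and 8.89% in WT. EMF2b summits at members were a median of 103 and 133 bp from the WT H3K4me3 summit in plt345 and 133.5 and 139 bp in WT, but members are short, which bounds this distance. No EMF2b peak of 150 bp or more was found in any library at 335 members (56.4%), against 69.3% of kept regions. Neither a PLT5 site, EMF2b nor mutant H3K27me3 was found at 314 members (52.9%), against 67.0% of kept regions.

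By state, EMF2b was present in both plt345 libraries at 157 absent regions (26.4%; 19.4% of all H3K4me3-only regions), in both WT libraries at 161 (27.1%; 16.1% of all) and in all 4 at 113 (19.0%; 12.4% of all). Of these 113, 81 were also PLT5 sites, which is 13.6% of absent regions, against 1370 of the 1964 kept regions with EMF2b in all 4 libraries, or 8.34% of kept regions. EMF2b in every library thus mostly came with PLT5 in both classes. The strongest of the 81 was on chromosome 9 from 8188764 to 8189205, with 367 and 420 bp of H3K4me3 in WT and 0 bp in plt345. EMF2b covered 376 and 428 bp of it in plt345 and 442 and 442 bp in WT, and PLT5 291 and 416 bp. On chromosome 7 from 5141786 to 5142355 H3K4me3 covered 529 and 546 bp in WT, with EMF2b over 570 and 570 bp in plt345 and 570 and 554 bp in WT. In WT EMF2b covered the whole of the first region, and in plt345 the whole of the second. Cover cannot exceed the region, and EMF2b in all 4 libraries was part of the choice. How alike the genotypes were in EMF2b can therefore not be read from these regions.

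The next of these regions were on chromosome 5 from 25504951 to 25505840, chromosome 1 from 25879705 to 25880369, chromosome 8 from 6196936 to 6197900 and chromosome 3 from 12368968 to 12369396. Their mean WT strength was 16.4, 16.3, 15.6 and 14.6. On chromosome 8 EMF2b covered 573 and 742 bp in plt345 and 952 and 955 bp in WT, the widest gap between the genotypes among the 6, and on chromosome 3 it covered the whole 429 bp in all 4 libraries. None of the 6 had H3K27me3 in any library of either genotype.

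**Figure D5:**
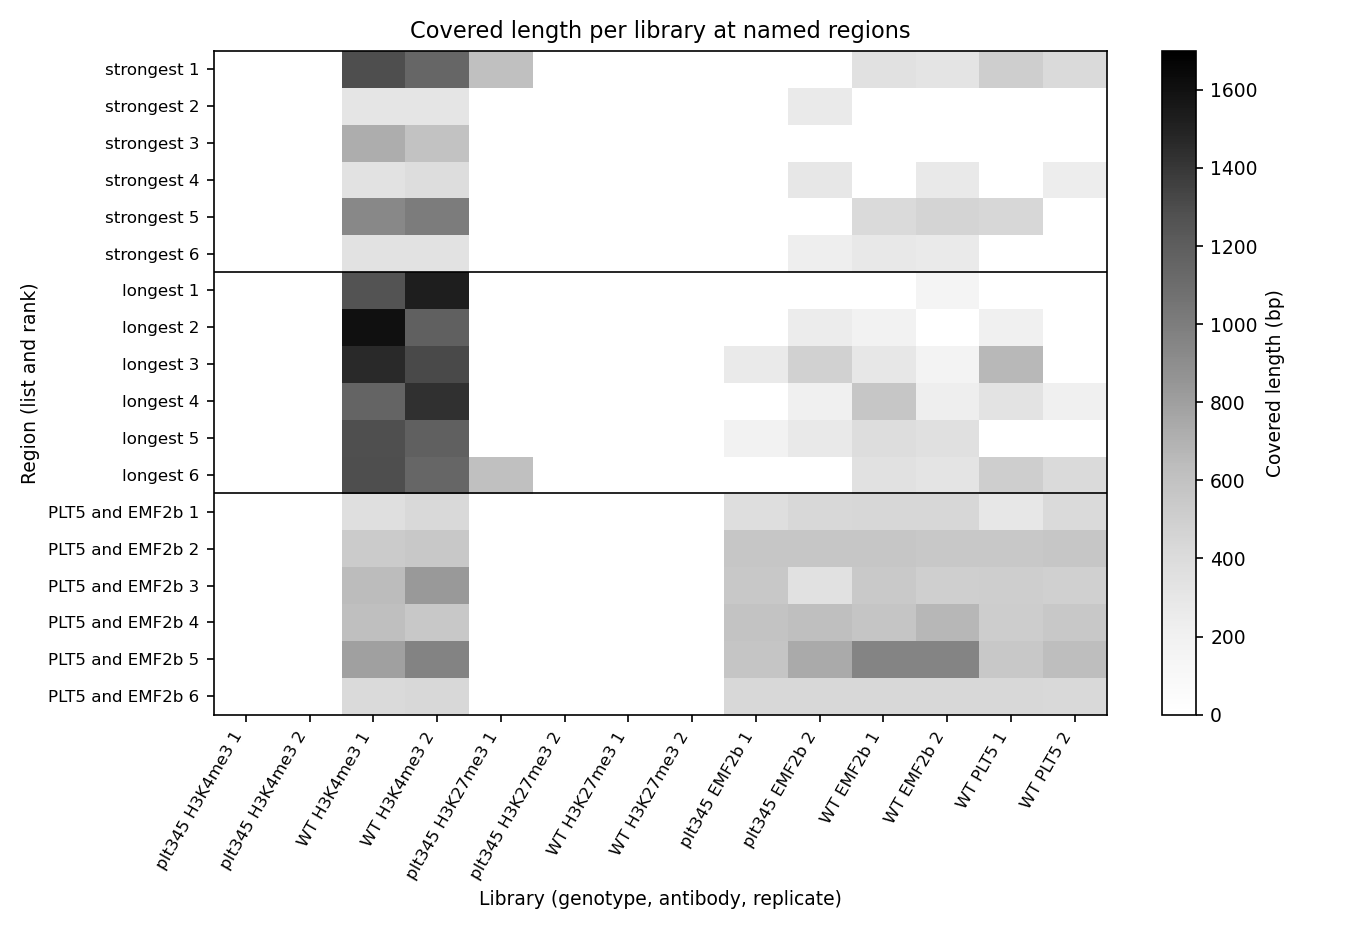
Covered length (bp, darker is longer) in each library at 3 groups of absent regions, in rows by rank, with plt345 columns left of WT for each antibody: the 6 strongest, the 6 longest, and the 6 strongest of the 81 with PLT5 and with EMF2b in all 4 libraries. The strongest region and the sixth longest are the same. H3K4me3 columns are empty in plt345 by the choice of regions, and EMF2b fills its 4 columns in every row of the last group by the choice of that group.

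EMF2b was called in 1 genotype alone at few absent regions. It was in both WT and neither plt345 library at 26 (4.38%; 1.78% of all H3K4me3-only regions) and in both plt345 and neither WT library at 21 (3.54%; 4.38% of all). Over all H3K4me3-only regions the second kind was thus the more frequent, with 771 regions against 314 of the first kind. Besides the region of chromosome 2 with 350 and 320 bp in WT, EMF2b was in WT alone on chromosome 7 from 26141005 to 26142011 (408 and 464 bp), on chromosome 9 from 19675782 to 19677074 (441 and 472 bp), on chromosome 6 from 10405396 to 10406266 (691 and 716 bp) and on chromosome 2 from 19921184 to 19921579 (386 and 370 bp). The strongest member with EMF2b in plt345 alone was on chromosome 6 from 9991445 to 9992142, at 234 and 295 bp. PLT5 was a site of both libraries at only the first of these 6.

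H3K27me3 was called in plt345 at a small share of the absent regions. It covered 150 bp or more at 17 (2.86%; 95% Wilson interval 1.79 to 4.54%) and 13 (2.19%; 1.28 to 3.71%) of the 594 in plt345, against 1.69% and 1.73% of kept regions, the first just below its interval and the second within it. It was in both plt345 libraries at 5 members (0.842%), against 0.721% of all H3K4me3-only regions, and in 1 or both at 25 (4.21%), against 2.81% of all. The mean share, 2.53 ± 0.476% (SD, n = 2), depended on the lists. It was 5.63% with an equal number of peaks taken from every list of an antibody and 6.10% with equal covered length. Without replicate 2 of all WT antibodies, where the lack of WT H3K27me3 rested on 1 library, it was 4.14%. For regions with no WT H3K27me3 within 1000 bp it was 1.47%. The lack of H3K27me3 in WT is part of the rule, so the genotypes were not compared. For scale, of the 418 other regions that had lost H3K4me3 but carried H3K27me3 in both WT libraries, 79.7% and 79.4% had H3K27me3 in plt345.

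All 5 members with H3K27me3 in both plt345 libraries were weak in H3K4me3. On chromosome 2 from 23903558 to 23904590 it covered 780 and 1033 bp in plt345, against 0 bp in both WT libraries. H3K4me3 had covered 929 and 1033 bp there in WT. On chromosome 1 from 1492005 to 1492397 it covered all 393 bp in both plt345 libraries. A pair of regions touched H3K27me3 already in WT below the limit: chromosome 5 from 23238658 to 23238967, with 310 and 310 bp in plt345, against 0 and 136 bp in WT, and chromosome 11 from 1158592 to 1159146, with 532 and 450 bp in plt345, against 90 and 90 bp in WT. The fifth, on chromosome 6 from 28157069 to 28157531, had 463 and 463 bp in plt345, the nearest WT H3K27me3 peak 11718 bp away, and also carried PLT5 and EMF2b in every library of those antibodies. The other 4 lay within 1000 bp of a WT H3K27me3 peak.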

How the data were processed

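Each of the 14 libraries has a peak list of its own, so peaks were called per sample. The tools in the submitters' processing notes were MACS2 2.2.7.1, Bowtie2 2.4.4, Trim Galore 0.6.6 and deepTools 3.5.0. The sources used here do not give the genome build, the control libraries or the treatment of duplicates. The lists have no header and were read in the column order of MACS2. The deposited columns are start, end and summit (other values, in bp), a score of 10 times a −log10 p (narrow lists) or −log10 q (broad H3K27me3 lists), a fold enrichment (a ratio over the library's own background), and −log10 p and −log10 q, all as the authors' peak caller gave them. Peak names hold a p cutoff of 1e-05 and a broad cutoff of 0.1. Strengths describe regions within a list; only the medians of whole H3K4me3 lists were set side by side.

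Regions were merged H3K4me3 peaks (Python 3.11.15, pandas 2.3.3, numpy 2.4.6), and the code was tested on simulated lists. Positions are 1-based. Intervals are 95% Wilson intervals from scipy 1.17.1. Intervals cover counting error only, and regions are not independent. Libraries were the units of the exact permutation tests; whether replicates were separate plants is not stated, so their spread may be technical. Named regions are the 6 first by rank of 5 lists fixed by rule: strongest, longest, with mutant H3K27me3, with PLT5 and EMF2b in all 4 libraries, and with EMF2b in 1 genotype. Regions stand in place of genes. The regions, lists and tests were chosen with earlier results of these data known.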

Additional observations from a re-analysis of the deposited data

How the results depend on the processing

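The excess of EMF2b at absent over kept regions was smaller in plt345 than in WT in all 14 alternatives, from -8.68 to -1.58 points. The genotype difference of EMF2b at absent regions had no stable sign: it was 4.35 points with equal covered length, -0.861 points with presence at 1 bp, -2.77 at 500 bp, -2.39 with equal numbers of peaks, -3.95 without the weakest 25% of peaks, -0.548 with peaks up to 500 bp apart merged, and 0 both for regions with no WT H3K27me3 within 1000 bp and for those over 1000 bp from a kept region. The share with H3K27me3 in plt345 was 5.63% with equal numbers of peaks, 6.10% with equal covered length, 1.47% with no WT H3K27me3 within 1000 bp and 3.14% at a WT −log10 q of 8 to 12. PLT5 sites lay on 26.1% with presence at 500 bp, 25% with peaks merged over 500 bp and 25.1% of regions over 1000 bp from a kept one. The median WT length was 659 bp with presence at 500 bp, 499.5 bp with equal numbers of peaks, 488 bp with equal covered length, 743 bp without the weakest 25% of peaks and 485 bp with peaks merged. Median strength was 12.2 with presence at 500 bp, 9.84 with equal covered length and 15.5 without the weakest 25% of peaks. The median distance to a kept region was 5459 bp with presence at 500 bp, 3908.5 bp with equal covered length, 6566 bp without the weakest 25% of peaks and 4317.5 bp with peaks merged. The causes of these shifts were not tested. Of the 594 regions, 550 (92.6%) were among the 879 absent with equal numbers of peaks, of which they made up 62.6%, and 502 (84.5%) were among the 598 absent with equal covered length, or 83.9% of these. The restrictions by strength and by distance were chosen after seeing the data.

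Replicates were also left out by number, for all antibodies of 1 genotype together. The count was then 882 to 1123, the EMF2b difference -1.97 to 2.63 points (-0.935 without WT replicate 2) and the H3K27me3 share 2.58 to 4.14%. The PLT5 share was 20.3 to 27.6%, the median length 408 to 463.5 bp and the median strength 8.63 to 9.68. Without a WT replicate, a PLT5 site and the lack of WT H3K27me3 each rested on 1 library, so these shifts are not the effect of a single library. Replicate numbers showed no sign of pairing the libraries. Deviations of same-numbered libraries correlated across the 30126 regions at -0.0022 for H3K4me3, -0.0043 for H3K27me3 and -0.0089 for EMF2b. At the 594 absent regions the values were 0.0364 for H3K27me3 and -0.0883 for EMF2b. With 2 libraries a group, such values cannot show that the numbers mark no shared batch. In the replicate block only same-numbered libraries are compared, with 1 library per antibody and genotype, also for PLT5 sites and WT H3K27me3. The mean count was then 1482.5, the EMF2b difference 1.14 points, the H3K27me3 share 3.71%, the PLT5 share 26.0%, the length 417 bp and the strength 9.07. With 2 libraries a group the exact permutation test cannot pass 0.05, and without reads a weak peak and an absent one cannot be told apart.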

Other observations

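Absent regions were spread over the genome. They made up between 2.81% (37 regions, chromosome 7) and 4.42% (52 regions, chromosome 8) of the H3K4me3-only regions of a chromosome, and only the Wilson interval of chromosome 8, the highest of the 12 chromosomes, lay above the 3.37% of the whole set (3.39 to 5.75%). Most stood apart from each other: 42 stood directly beside another absent region in the order of H3K4me3 regions, as 19 pairs and 1 run of 4, and 28 (4.71%; 3.28 to 6.73%) lay within 1000 bp of another. Of kept regions, 137 (0.834%; 0.706 to 0.985%) lay within 1000 bp of an absent one. WT H3K27me3 was a more frequent neighbour, with a peak within 1000 bp of 84 absent regions (14.1%; 11.6 to 17.2%), against 8.98% of kept ones (8.55 to 9.42%).

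H3K4me3 regions that appeared in plt345 carried PLT5 and EMF2b less often than the absent ones. PLT5 was analysed in WT only, where these regions have no H3K4me3 by definition, so the comparison is not of like with like. Near WT H3K27me3 the 2 kinds were similar, with 14.4% of the regions that appeared and 14.1% of the absent ones within 1000 bp of a peak. Of the 1511 regions with H3K4me3 in both plt345 and neither WT library, and no H3K27me3 in WT, 2.32% were PLT5 sites, against 21.2% of the absent regions, and EMF2b lay on 6.49% and 8.47% in plt345 and 3.77% and 2.91% in WT.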
